A study of Mus musculus with 2 samples.

Results

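Plasma cells of the pancreatic islet were described from 178 cell barcodes, 64 in a library from WT NOD mice and 114 in a library labelled NOD.Cxcl16-/-. They were chosen by their transcripts, counted as unique molecular identifiers (UMIs, one for each captured RNA molecule). Among barcodes with at least 500 detected genes and at most 10% mitochondrial UMIs, a plasma cell had at least 10 UMIs of Jchain, at least 3 of Xbp1 and at least 3 of Mzb1. It also had at most 2 UMIs of the macrophage genes C1qa, C1qb and C1qc together and at most 1 of the T-cell genes Cd3d, Cd3e and Cd3g together. The 178 barcodes came from 24413 deposited barcodes, of which 22466 passed the gene and mitochondrial filters. They made up 0.522% of the 12252 barcodes that passed in the WT NOD library (95% exact Clopper-Pearson interval 0.403 to 0.667) and 1.12% of the 10214 in the library labelled NOD.Cxcl16-/- (0.922 to 1.34).

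Plasma cells are the end stage of the B lineage and release antibody. PRDM1 and XBP1 drive the change from B cell to plasma cell, which shuts down B-cell genes and enlarges the endoplasmic reticulum (ER), where immunoglobulin chains are made, folded, given their sugars and passed on to the Golgi. Each cell carries 1 rearranged heavy chain and 1 light chain. The heavy constant gene, switched from Ighm to an IgG or IgA gene in part of the cells, sets the isotype, and the J chain joins IgM and IgA into polymers. NOD mice develop autoimmune diabetes, and B cells and plasma cells gather with T cells and myeloid cells around and in their islets.

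Both libraries were made from 12-week-old females, the first from NOD mice without a named gene change and the second from NOD mice labelled as lacking Cxcl16, a membrane-bound chemokine whose receptor is CXCR6. Islets had been picked by hand after collagenase digestion, and live CD45-positive, CD31-negative cells were sorted from them and sequenced from the 3' end of the transcript on the 10x Genomics platform. The number of mice behind each library is not given in the sources used here. Where a pair of values stands without further words, the WT NOD library comes first. Each group has 1 library of 93553185 and 98681133 UMIs, so no difference between the groups was tested, and every interval given here covers counting error only, at the 95% level. A transcript counted as Cxcl16 was present in the library labelled NOD.Cxcl16-/-. Which part of the gene the allele removes is not given in the sources used here, so 3'-end counts do not check that label, and no direction below is attributed to the genotype.

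The members were large in RNA content. The lowest, median and highest totals were 2090, 24695 and 80463 UMIs per cell in the WT NOD library and 1550, 27777 and 100693 in the other, against medians of 4883.5 and 4900 UMIs in 1412 and 1693 B cells (Ms4a1 and Cd79a present, Cd3 and C1q absent or nearly so). Immunoglobulin genes took a median of 49.9% of a plasma cell's UMIs in the WT NOD library (lowest 1.82%, highest 74.7%) and 39.2% in the other (0.302% to 72.5%), and about 1% in B cells (medians 1.05% and 1.07%). For this reason all levels of other genes are given as counts per 1000000 UMIs outside immunoglobulin genes (CPM). Jchain, the joining chain, ranged from 15 to 2689 UMIs per cell with a median of 755 in the WT NOD library, and from 10 to 3787 with a median of 504 in the other. Jchain, Xbp1, Mzb1, C1q and Cd3 chose the cells, so their levels are a description.

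Of the barcodes that met the minimums, more were left out for Cd3 than for C1q. The 3 minimums were met by 153 and 248 barcodes, of which 62 and 74 were left out for Cd3 alone, 7 and 10 for C1q alone, and 20 and 50 for both. Those left out for Cd3 alone had a median of 23.5 and 21 Cd3 UMIs, and 44 of 62 and 54 of 74 had 10 or more. They were also larger, with median totals of 37901.5 and 42810.5 UMIs. Just inside the rule stood 1 and 3 members with 10 to 19 Jchain UMIs, 6 and 15 with 3 or 4 Xbp1 UMIs, 13 and 23 with 1 or 2 C1q UMIs, and 12 and 21 with 1 Cd3 UMI. Just outside it stood 16 and 21 barcodes with 1 or 2 Xbp1 UMIs and 13 and 9 with 2 to 4 Cd3 UMIs that met every other condition. The share of plasma cells is therefore a share under this rule, not of all cells that hold plasma cell transcripts.

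The 3 markers that the rule did not use were present in most members or in many. Sdc1, which encodes the plasma cell surface proteoglycan CD138, had UMIs in 53 of 64 cells of the WT NOD library against 88 of 114 of the other. Derl3, of ER-associated degradation, was detected in 60 and 96 cells. Tnfrsf17, which encodes the survival receptor BCMA, was detected in 33 and 50. In B cells these genes stood at 1.73 and 0.981 CPM (Sdc1), 4.04 and 4.90 CPM (Derl3) and 0.231 and 0.178 CPM (Tnfrsf17). The label thus holds for most members, with 2 kinds of exception. First, 4 barcodes of the library labelled NOD.Cxcl16-/- had under 1% of their UMIs in immunoglobulin genes, no UMI of Sdc1 or Derl3, and 109 UMIs of the B-cell gene Ms4a1. Second, 4 and 15 barcodes had at least 50 UMIs of Cst3, a gene of high level in dendritic cells and macrophages. Those 15 held all 28 Xcr1 and 13 of 14 Clec9a UMIs of their library's members, both markers of a dendritic cell type. The 4 of the WT NOD library held 0 UMIs of either. Immunoglobulin genes still took a median of 42.9% and 32.0% of the UMIs in the 4 and 15 barcodes.

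Summed levels of markers of other cell types are a description. The T-cell list holds the Cd3 genes and the macrophage list the C1q genes, all limited by the rule. The summed level of 13 T-cell markers was 173 and 194 CPM, with per-cell medians of 1.36 and 1.43 UMIs in 10000 and 1 and 0 of the genes at 0. That of 17 macrophage markers, among them Cst3 and Fcer1g, was 3036 and 3289 CPM, with 3 and 1 of the genes at 0. That of 8 dendritic cell markers was 131 and 265 CPM, and that of 10 islet endocrine markers 21.2 and 139 CPM, with 6 and 3 of the genes at 0. Ins2, the insulin gene of the beta cell, reached 5.46 and 54.2 counts per 1000000 of all UMIs in plasma cells and 95.5 and 112 in T cells, which do not make insulin. Of 45 barcode sequences found in both libraries, 0 belonged to a plasma cell.

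The isotype of a cell was taken as the heavy constant gene with at least 70% of its heavy-chain UMIs, over at least 20 such UMIs. It was clear in nearly every cell: 63 of 64 and 110 of 114 cells could be assigned, and the leading gene held a median of 99.7% of the heavy-chain UMIs in both libraries. In the WT NOD library 24 cells (37.5%, interval 25.7 to 50.5) were Ighm, 23 (35.9%, 24.3 to 48.9) were Ighg2c, 7 (10.9%, 4.51 to 21.2) were Ighg2b, 7 were Igha and 2 were Ighg1. In the library labelled NOD.Cxcl16-/- 34 cells (29.8%, 21.6 to 39.1) were Ighm, 28 (24.6%, 17.0 to 33.5) were Ighg2b, 26 (22.8%, 15.5 to 31.6) were Ighg2c, 19 (16.7%, 10.3 to 24.8) were Igha, 2 were Ighg1 and 1 was Ighg3. IgG cells were thus 32 of 64 and 57 of 114, 50% in each. With C1q and Cd3 both at 0, which left 41 and 75 cells, IgG was 63.4% and 49.3% and Ighm 24.4% and 26.7%. Among all 32 and 57 IgG cells under the full rule, Ighg2c led over Ighg2b in the WT NOD library by 23 cells to 7. The pair stood at 26 and 28 cells in the other. For each isotype the intervals of the 2 libraries overlapped. No cell was Ighd or Ighe, which allows a share of up to 4.69% in the WT NOD library against 2.63% in the other.

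**Figure D1:**
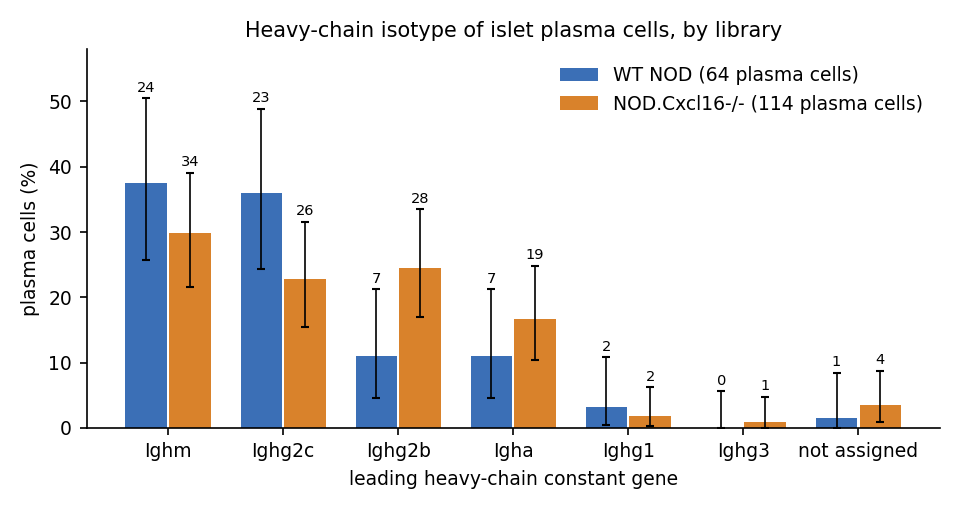
Share of plasma cells (%) by leading heavy-chain constant gene in each library, with exact 95% Clopper-Pearson intervals as error bars and the number of cells above each bar. IgM and IgG2c lead in the WT NOD library with 24 and 23 cells, and in the library labelled NOD.Cxcl16-/- Ighg2b (28 cells) stands beside Ighg2c (26 cells).

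Isotypes differed in how much of the RNA was immunoglobulin, and not in the same order in both libraries. In IgM cells the median was 60.0% of UMIs in the WT NOD library against 41.1% in the other. In IgG cells it was 48.8% and 36%, and in Igha cells 31.4% (7 cells) and 55.7% (19 cells). The lowest and highest cells of each isotype spanned wide and overlapping ranges, from 12.3% to 70.6% in the 24 Ighm cells of the WT NOD library and from 5.13% to 74.7% in its 32 IgG cells. Light chains were nearly all kappa. By the same 70% rule 63 of 64 cells (98.4%, 91.6 to 100) used Igkc in the WT NOD library and 114 of 114 in the other. There 0 lambda cells allow a share of up to 2.63% by the floor of 3 counts and 3.18% by the exact interval. The single lambda cell was an Ighg2c cell with 5244 UMIs of Iglc2, 129 of Iglv2 and 1587 of Igkc.

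The variable genes showed that many cells shared the same heavy and light pair. A variable gene was assigned where 1 gene held at least 50% of the UMIs of its kind, with at least 5 UMIs. Both genes could be assigned in 50 of 64 cells of the WT NOD library against 89 of 114 of the other, from a median of 40.5 and 34.5 heavy and 71 and 49 kappa variable UMIs per cell. The 50 cells held 29 distinct pairs, and 30 of the 50 (60%, 45.2 to 73.6) had a pair that at least 1 other cell of the library had. The 89 cells held 55 distinct pairs, and 46 (51.7%, 40.8 to 62.4) had a repeated pair. Of the repeated pairs, 8 of 9 and 9 of 12 were found with a single isotype. The reads of a 3'-end library do not cover the junction between gene segments, the reference is of the strain C57BL/6J rather than NOD, and near-identical variable genes share reads, so a shared pair is not shown to be a clone.

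The last 120 bases of the second of 2 exons are printed for the genes of the leading pairs, since these are the genes by which the repeated cells were recognised. The capitals mark the last in-frame cysteine codon, which closes the framework before the rearranged junction. All are read from GRCm38 with the GENCODE annotation, 5' to 3' on the strand of the gene. Ighv1-9 lies at chr12:114583569-114583688 (minus strand), Igkv1-132 at chr6:67760294-67760413 (plus), Ighv3-6 at chr12:114288152-114288271 (minus), Igkv3-10 at chr6:70573111-70573230 (plus), Ighv6-3 at chr12:114391712-114391831 (minus), Ighv9-3 at chr12:114140692-114140811 (minus) and Igkv4-53 at chr6:69648824-69648943 (minus).
Ighv1-9: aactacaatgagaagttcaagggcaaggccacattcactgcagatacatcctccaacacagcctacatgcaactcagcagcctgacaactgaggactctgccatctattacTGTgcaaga
Igkv1-132: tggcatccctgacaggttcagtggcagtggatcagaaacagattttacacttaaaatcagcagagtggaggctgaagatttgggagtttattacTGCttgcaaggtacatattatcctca
Ighv3-6: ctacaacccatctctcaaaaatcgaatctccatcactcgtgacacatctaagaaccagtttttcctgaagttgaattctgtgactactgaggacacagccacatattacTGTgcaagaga
Igkv3-10: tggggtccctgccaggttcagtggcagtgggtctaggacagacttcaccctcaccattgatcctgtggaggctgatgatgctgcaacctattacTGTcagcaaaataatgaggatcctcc
Ighv6-3: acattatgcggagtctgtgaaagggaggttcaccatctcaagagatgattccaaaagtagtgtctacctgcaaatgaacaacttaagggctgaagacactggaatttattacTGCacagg
Ighv9-3: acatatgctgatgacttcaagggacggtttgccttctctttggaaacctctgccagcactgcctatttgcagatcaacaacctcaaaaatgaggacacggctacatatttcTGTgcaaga
Igkv4-53: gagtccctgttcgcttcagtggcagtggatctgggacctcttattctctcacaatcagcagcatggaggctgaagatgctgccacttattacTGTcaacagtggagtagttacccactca

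The commonest pair differed between the libraries. In the WT NOD library it was Ighv1-9 with Igkv1-132, held by 8 of 50 cells (16%, 7.17 to 29.1). All 8 were Ighm, their immunoglobulin share lay between 59.8% and 70.6% of UMIs, and 0 of the 7 deep enough to be scored were cycling. Next came Ighv9-3 with Igkv1-133 in 4 Ighg2c cells. In the library labelled NOD.Cxcl16-/- the commonest pair was Ighv3-6 with Igkv3-10, held by 14 of 89 cells (15.7%, 8.88 to 25). Of these, 13 were Ighg2c and 1 was Ighg2b. It was followed by Ighv6-3 with Igkv1-132 in 6 Ighg2b cells and Ighv9-3 with Igkv4-53 in 5 Ighg2b cells, so that these 2 pairs made up 11 of the library's 28 Ighg2b cells.

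**Figure D2:**
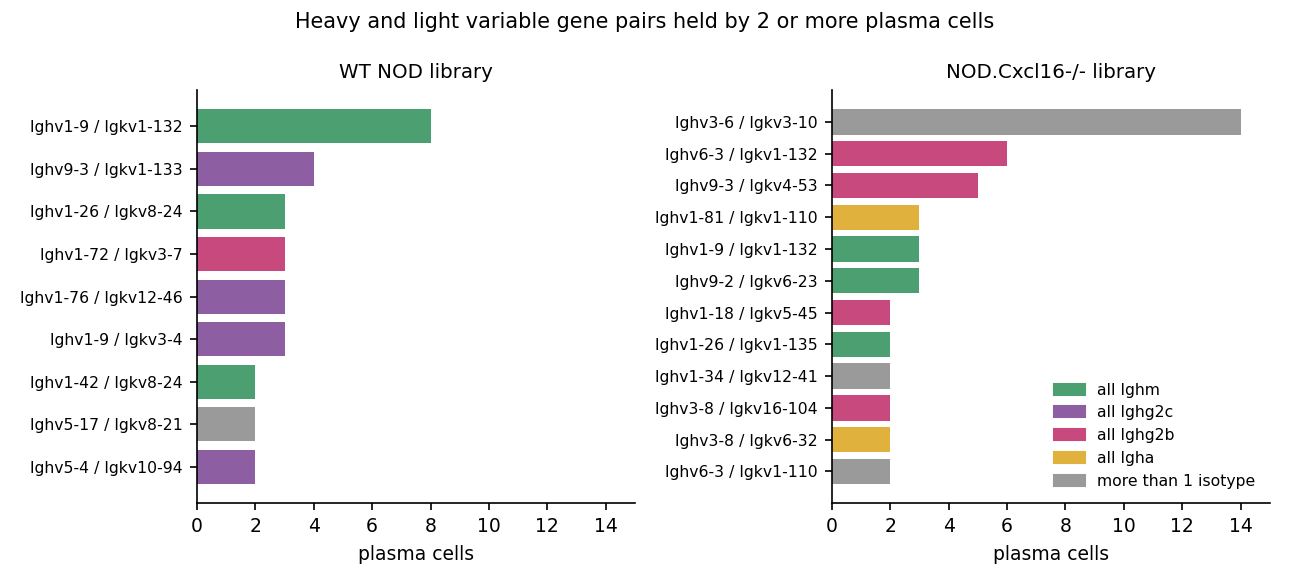
Number of plasma cells (horizontal axis) for each heavy and light variable gene pair held by at least 2 cells, by library, coloured by isotype. The leading pairs are Ighv1-9 with Igkv1-132 in 8 Ighm cells of the WT NOD library and Ighv3-6 with Igkv3-10 in 14 cells of the library labelled NOD.Cxcl16-/-, 13 of them Ighg2c.

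Only 4 pairs were found in both libraries, 13.8% of the 29 and 7.27% of the 55 distinct pairs. They covered 14 and 6 cells. Ighv1-9 with Igkv1-132 was among them, and its 3 cells in the library labelled NOD.Cxcl16-/- were Ighm as well. Ighv3-6 with Igkv3-10 was in 0 cells of the WT NOD library. Of the 4 pairs whose sequences are printed, 3 were also found among the barcodes left out for Cd3 alone, which the assignment above had not used, and Ighv9-3 with Igkv4-53 was in 0 of them. There Ighv1-9 with Igkv1-132 was in 14 of 47 assigned barcodes of the WT NOD library, all Ighm, and in 2 of 44 of the other. Ighv3-6 with Igkv3-10 was in 9 of 44 of the library labelled NOD.Cxcl16-/-, all Ighg2c, and in 0 of 47 of the WT NOD library. Ighv6-3 with Igkv1-132 was in 6 of 44, all Ighg2b. Isotypes of those barcodes were 35 Ighm, 16 Ighg2c, 7 Ighg2b and 3 Igha of 62, and 26 Ighm, 22 Ighg2b, 16 Ighg2c and 5 Igha of 74.

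IgM and IgG plasma cells of the same library differed in a small set of genes outside immunoglobulin. The comparison used 24 IgM and 32 IgG cells in the WT NOD library and 34 and 57 in the other, and a gene was counted where the 2-fold difference had the same direction in both libraries. Of 2524 genes with a mean of at least 50 CPM, 14 (0.555%) were higher in IgG cells and 12 (0.475%) were lower. The median log2 ratio of all genes tested was 0.08 in the WT NOD library against 0.01 in the other. The median depth outside immunoglobulin genes was 10493 UMIs in IgM and 11537.5 in IgG cells of the WT NOD library, and 10860 and 16288 in the other.

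Slpi, a secreted inhibitor of serine proteases, was the most abundant of these genes. In the WT NOD library the lowest, median and highest IgM cells had 0.280, 53.2 and 678 Slpi UMIs in 10000 outside immunoglobulin, and IgG cells had 3.54, 281 and 1976. In the library labelled NOD.Cxcl16-/- the values were 0, 37.6 and 318 in IgM and 0.218, 133 and 2042 in IgG cells. The ranges overlapped, with a higher middle in IgG cells of both libraries. As CPM of the summed cells Slpi was 7901 in IgM and 26373 in IgG cells (log2 ratio 1.74, 1.68 to 1.80) and 4290 and 27032 (2.66, 2.60 to 2.72). Vpreb3, an ER protein of the B lineage, was found in 4 of 24 IgM and 19 of 32 IgG cells and in 11 of 34 and 42 of 57, with log2 ratios of 4.36 (3.29 to 5.90) and 2.61 (2.01 to 3.33). Ebf1, a B-lineage transcription factor, was found in 4 and 20 cells and in 7 and 34 cells (log2 ratios 1.43 and 2.40). Ly6c2, a surface protein with near-identical relatives, was found in 13 and 26 cells and in 12 and 45 cells (1.68 and 1.99). Ly6c2 is also on a list of monocyte and neutrophil markers. Bcl2l11, which encodes the death-promoting BIM, was found in 5 and 17 cells and in 10 and 35 cells (2.58 and 1.59).

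The other 9 higher genes were Cd274, which encodes the checkpoint ligand PD-L1 (log2 ratios 1.47 and 1.16), Tex14 (1.52 and 1.81), the adaptor Scimp, the translation regulator Cpeb2, the chemokine receptor Ccr7, the decoy receptor Il1r2, the phosphatase Dusp2, Jarid2 and Tbc1d4. Of these, Ccr7 and Il1r2 rested on few cells: Ccr7 was in 2 and 3 cells of the WT NOD library, and Il1r2 in 1 and 4. Without the barcodes of highest doublet score both stood at a log2 ratio of -0.87 there. In the library labelled NOD.Cxcl16-/- the 15 barcodes with at least 50 Cst3 UMIs held 74.8% of the Ccr7 and 58.9% of the Il1r2 UMIs of all plasma cells. With every cell weighted equally, Jarid2, Scimp and Tbc1d4 stood at -0.62, -0.22 and -0.08 in the library labelled NOD.Cxcl16-/-.

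The genes higher in IgM cells included Tnfrsf17, Slc3a2, Asns and Txndc5. Tnfrsf17, the BCMA gene, had UMIs in 17 of 24 IgM and 11 of 32 IgG cells of the WT NOD library and in 23 of 34 and 10 of 57 of the other. Its summed level was 179 CPM in IgM against 37.4 in IgG cells (log2 ratio -2.23, -3.12 to -1.47) and 103 against 19 CPM (-2.37, -3.23 to -1.69). Slc3a2, the shared heavy chain of several amino acid transporters, stood at 682 against 203 CPM (-1.74) and 585 against 182 CPM (-1.68). Asns, which makes asparagine, stood at -1.45 and -2.37. They were the 2 genes called among 11 tested of the list of Atf4 and its targets, and Phgdh of serine synthesis (-0.70 and -0.78) and Shmt2 (-0.61 and -0.77) did not pass. Txndc5, a protein disulfide isomerase, had a median of 29.2 UMIs in 10000 in IgM and 6.28 in IgG cells of the WT NOD library and 23.3 and 3.98 in the other, with log2 ratios of -1.52 and -1.19. It was the only 1 of 91 tested genes of protein import, folding, degradation, glycosylation and export to be past 2-fold in both libraries.

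Fcer1g, the gamma chain of Fc receptors, was found in 22 of 24 IgM and 10 of 32 IgG cells (log2 ratio -2.45, -2.90 to -2.04) and in 27 of 34 and 20 of 57 (-1.26, -1.60 to -0.93). Chst1, a sulfotransferase, stood at -2.68 and -1.91, and Fam214a at -1.36 and -1.47. Fcer1g and Apoe are also on the macrophage list, of which 2 of 6 tested genes were lower in IgG cells of both libraries. C1qb, limited by the rule and below the level set for testing, had 11 UMIs in 10 of 24 IgM and 0 in 32 IgG cells, and 9 UMIs in 7 of 34 and 8 in 7 of 57 in the other library. Cst3, of the same list, stood at -0.30 and 0.72. The part of macrophage RNA in these values was not tested. Hspb1 and Apoe rested on few cells: 1 IgM cell held 75.6% of the Hspb1 UMIs of its group in the WT NOD library, and the 23 Apoe UMIs of IgM cells there came from 1 cell, beside 0 in IgG cells. Lmo4, Nf1 and Gm34215 completed the set. Under each of 6 alternatives (2 treatments of other cells' transcripts, low immunoglobulin, cycling cells, the commonest pair of each library, and equal weight per cell), 5 of the 14 higher genes remained past 2-fold in both libraries: Bcl2l11, Ebf1, Ly6c2, Slpi and Vpreb3. Of the 12 lower genes 8 remained: Apoe, Asns, Chst1, Fam214a, Fcer1g, Hspb1, Slc3a2 and Tnfrsf17.

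**Figure D3:**
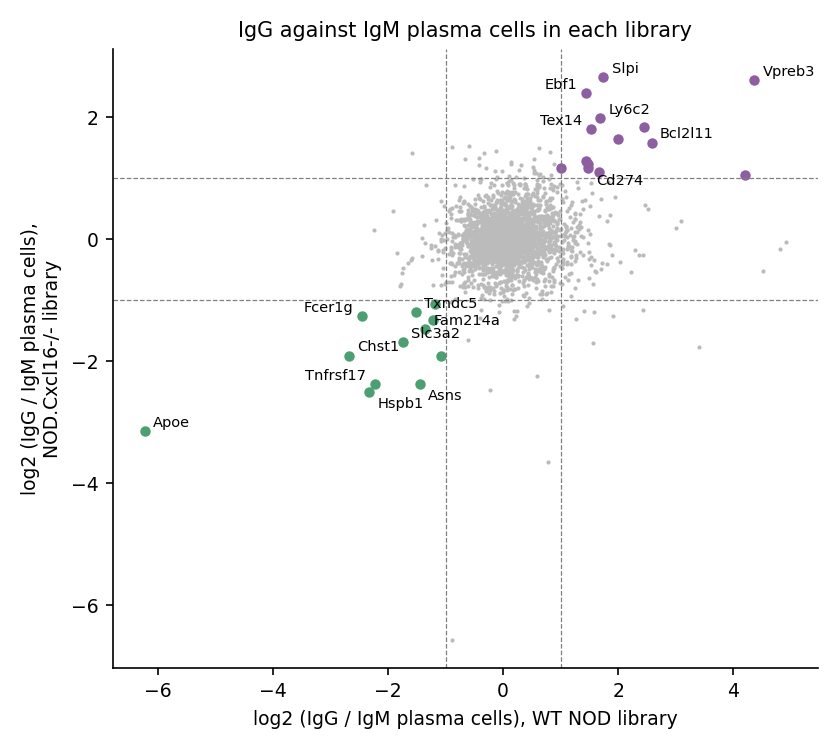
Log2 ratio of each of 2524 genes in IgG over IgM plasma cells, in the WT NOD library (horizontal) and the library labelled NOD.Cxcl16-/- (vertical), with dashed lines at 2-fold. Purple points are the 14 genes higher and green points the 12 genes lower in IgG cells of both libraries, and grey points are all others.

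The secretory machinery set plasma cells apart from B cells, as the rule had chosen cells with high Xbp1 and Mzb1, and these values are a description. Of 2840 genes tested, 300 (10.6%) were at least 2-fold higher in plasma cells than in B cells of the same library in both libraries, and 394 (13.9%) were lower. Among 83 tested members of 5 lists of secretory genes 72 were higher and 0 were lower, with median log2 ratios of 2.36 in the WT NOD library against 2.03 in the other. By list, higher members were 16 of 21 in ER import, 19 of 21 in folding, 12 of 12 in degradation, 11 of 12 in N-glycan transfer and 14 of 17 in transport from ER to Golgi. Mzb1, which the rule used, is on the folding list and was among its higher members.

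Within import, Ssr4 of the translocon-associated complex and the signal peptidase subunit Sec11c led, at 3585 and 2989 CPM and at 2912 and 2336 CPM, with log2 ratios over B cells of 3.78 and 3.65 and of 3.69 and 3.34. Within folding, the chaperone Hsp90b1 stood at 6354 and 6302 CPM (4.03 and 3.43). The prolyl isomerase Fkbp11 had the largest ratios of the lists, 6.23 and 6.42, followed by Derl3 in degradation with 6.11 and 5.75. Edem1 and Edem2, which mark misfolded glycoproteins for degradation, stood at 4.06 and 3.83 and at 4.78 and 4.23. In glycosylation Ddost, a subunit of the oligosaccharyltransferase, stood at 3.69 and 3.06, and in transport the cargo receptor Lman1 at 4.49 and 4.17. Not every member followed: the catalytic subunit Stt3b stood at -0.57 and -1.10 and the chaperone calnexin, Canx, at 0.45 and 0.16.

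**Figure D4:**
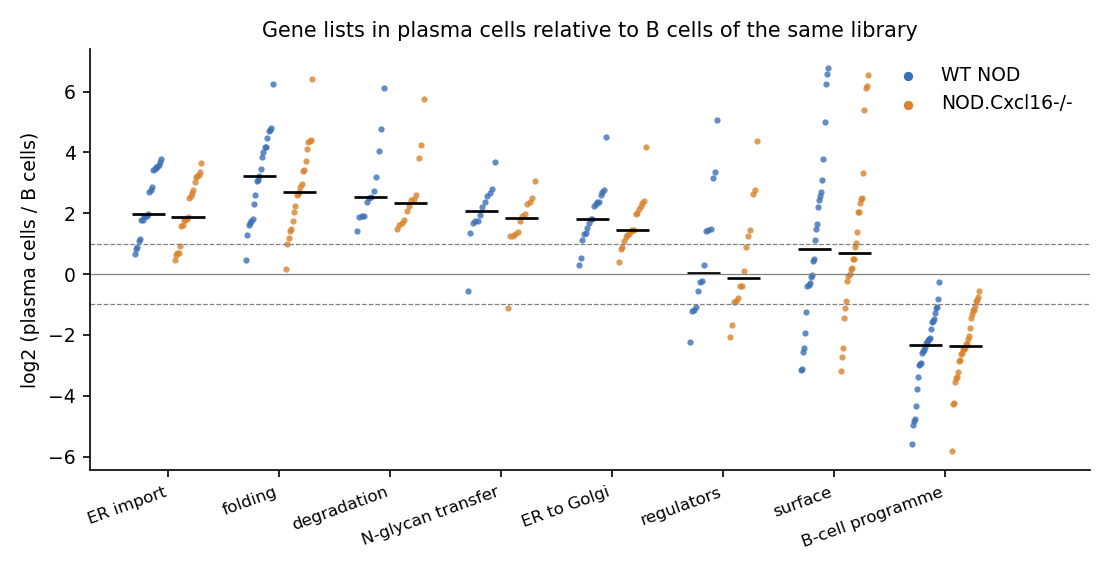
Log2 ratio of plasma cells over B cells of the same library for each tested gene of 8 lists, with black bars at the list medians and dashed lines at 2-fold. In the 5 secretory lists at the left 72 of 83 genes lie above the upper line in both libraries, and in the B-cell list at the right 24 of 28 lie below the lower line. Mzb1, on the folding list, was used to choose the plasma cells, and Ms4a1, on the B-cell list, to choose the B cells.

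The promoters of these genes were searched for 3 motifs on either strand, in the 250 bases before to 50 bases after each RefSeq start (GRCm38.p6). The motifs were TGACGTGG, CCAAT followed after 9 bases by CCACG, and the shorter ACGTG, which lies within the first. They are known as sites of factors of the unfolded protein response, and a match here is a match of letters. The lists hold genes of known ER function, and no count from these cells entered the search. The shares below therefore describe the lists, not these plasma cells. Promoters were at hand for 87 of 103 genes of the 5 lists, 100 promoters in all. The spaced motif was in 10 of the 100 (10%), against 39 of 32851 promoters of all genes (0.119%). It was in 8 of 31 promoters of folding genes (25.8%) and 2 of 14 of degradation genes, and in 0 of the import, glycosylation and transport lists. TGACGTGG was in 6 of 100 (6%) against 0.676% of all promoters, and ACGTG in 52 of 100 against 19.6%, with 15 of 20 in the transport list.

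Windows around the match are shown for 5 genes, picked after their values were seen from among those at least 2-fold higher than in B cells. The capitals mark the motif, with the bases between its parts included, and every sequence is 5' to 3' on the strand of the gene. The match lies on the strand of the gene in Hsp90b1 at chr10:86705598-86705694 (minus strand), in Hspa5 at chr2:34771985-34772083 (plus) and, for TGACGTGG, in Txndc5 at chr13:38528005-38528092 (minus). It lies on the opposite strand, and so reads as CGTGG to ATTGG, in Creld2 at chr15:88819480-88819578 (plus) and Derl3 at chr10:75893202-75893300 (plus).
Hsp90b1: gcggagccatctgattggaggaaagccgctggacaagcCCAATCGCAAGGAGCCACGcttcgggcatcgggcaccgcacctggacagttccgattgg
Hspa5: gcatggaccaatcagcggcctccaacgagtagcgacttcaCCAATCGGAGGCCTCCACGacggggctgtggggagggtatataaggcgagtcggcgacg
Creld2: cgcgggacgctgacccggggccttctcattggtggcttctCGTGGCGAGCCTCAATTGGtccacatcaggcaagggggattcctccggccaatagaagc
Derl3: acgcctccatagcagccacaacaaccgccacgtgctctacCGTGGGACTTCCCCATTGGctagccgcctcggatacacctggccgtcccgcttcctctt
Txndc5: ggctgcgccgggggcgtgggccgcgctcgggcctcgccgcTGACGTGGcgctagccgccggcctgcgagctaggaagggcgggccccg

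The genes with the spaced motif did not share 1 ratio over B cells. Derl3 stood at 6.11 and 5.75, Creld2 at 4.73 and 4.37, Hsp90b1 (which has the motif once on each strand) at 4.03 and 3.43, and Hspa5, the main ER chaperone BiP, at 1.80 and 1.74. Canx, which also has it, stood at 0.45 and 0.16. Txndc5, with TGACGTGG, stood at 4.69 and 4.10.

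Regulators, surface receptors and B-cell genes gave the rest of the profile, again as a description against B cells. Of 14 regulators tested 5 were higher and 2 lower, beside 10.6% higher and 13.9% lower of all 2840 genes tested. Xbp1, used by the rule, stood at 1346 and 1078 CPM. Ern1, the ER sensor kinase that splices its RNA, stood at 3.16 and 2.63, and Tent5c, an RNA polymerase that lengthens poly(A) tails, at 3.34 and 2.77. Prdm1, which encodes BLIMP1, was below the level set for testing, at 84.7 and 96.2 CPM against 4.61 and 4.90 in B cells. Irf4 hardly differed from B cells, at 0.30 and 0.10, while Klf2 (-1.08 and -1.69) and Pou2f2 (-2.22 and -2.06) were lower.

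Of 26 surface genes tested 12 were higher and 5 lower, beside 10.6% higher and 13.9% lower of all genes tested. The chemokine receptor gene Ccr10 had 145 and 116 CPM, in 37 of 64 and 53 of 114 cells, against 0.346 and 0.268 CPM in B cells, from 3 UMIs in each library's B cells. Cxcr3, the receptor of CXCL9 and CXCL10, stood at 92.1 and 99.1 CPM (2.42 and 2.47 over B cells). Cd28, also on the list of T-cell markers and below the level set for testing, stood at 58.2 and 82.4 against 2.65 and 2.85 CPM. Cxcr4, S1pr1 and Cd38 were lower than in B cells, Cxcr4 by -2.56 and -1.43. Of 28 B-cell genes 24 were lower and 0 higher. That list holds Ms4a1, by which the B cells had been chosen. Pax5 stood at -4.76 and -3.55, Cd22 at -4.82 and -3.23 and Fcer2a at -5.60 and -5.82. Genes of class II antigen presentation ranged widely. H2-Ob stood at -2.60 and -2.42, H2-DMb2 at -2.17 and -2.31 and H2-Aa at -1.47 and -1.20. H2-Ab1 (-0.81 and -0.85) and the invariant chain Cd74 (-0.27 and -0.56) were within 2-fold, as were Ralgps2 and Cd40 in at least 1 library. Il10 had 31 and 58 UMIs in 13 and 33 plasma cells, 32.8 and 27.6 CPM against 4.04 and 4.19 in B cells.

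A part of the plasma cells was cycling. After each cell was thinned to 3000 UMIs outside immunoglobulin genes, which left out 6 and 11 shallower cells, a cell was called cycling with at least 2 UMIs of Mki67, Top2a, Birc5, Cdk1 and Ube2c together. These were 8 of 58 cells in the WT NOD library (13.8%, 6.15 to 25.4) and 16 of 103 in the other (15.5%, 9.15 to 24.0). The shares moved with these settings: they were 3.23% and 13.9% after thinning to 1500 UMIs, and 24.1% and 35.0% with at least 1 UMI. Without thinning, 23.4% and 39.5% of cells passed, with medians of 11549.5 and 12212.5 UMIs outside immunoglobulin. In B cells, thinned alike with 128 and 118 left out, they were 41 of 1284 (3.19%) and 73 of 1575 (4.63%), and without thinning 6.30% and 7.03%, with medians of 4842 and 4832 UMIs. By isotype the cycling cells were 2 of 23 Ighm and 6 of 28 IgG cells in the WT NOD library, and 3 of 27 and 10 of 54 in the other, with 8 of 28 Ighg2b cells. With cells under 10% immunoglobulin left out the shares were 11.1% and 7.78%.

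Cycling cells held a smaller share of immunoglobulin and more UMIs of other genes. Their immunoglobulin share had a median of 15.7% (lowest 5.13%, highest 52.9%) in the WT NOD library, against 52.3% (1.82% to 74.7%) in the 50 other cells. In the library labelled NOD.Cxcl16-/- it was 8.15% (0.424% to 32.8%) in 16 against 48.7% (0.302% to 72.5%) in 87 cells. The range of the cycling cells lay inside that of the others in both libraries. The median of UMIs outside immunoglobulin was 27096.5 against 11855 and 42198.5 against 11588, and Igkc alone had median counts of 3625 against 10585.5 in the WT NOD library. Across cells, which share a library and differ in depth, Spearman's rho between the cycle count and the immunoglobulin share was -0.59 over 58 and -0.54 over 103 cells.

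**Figure D5:**
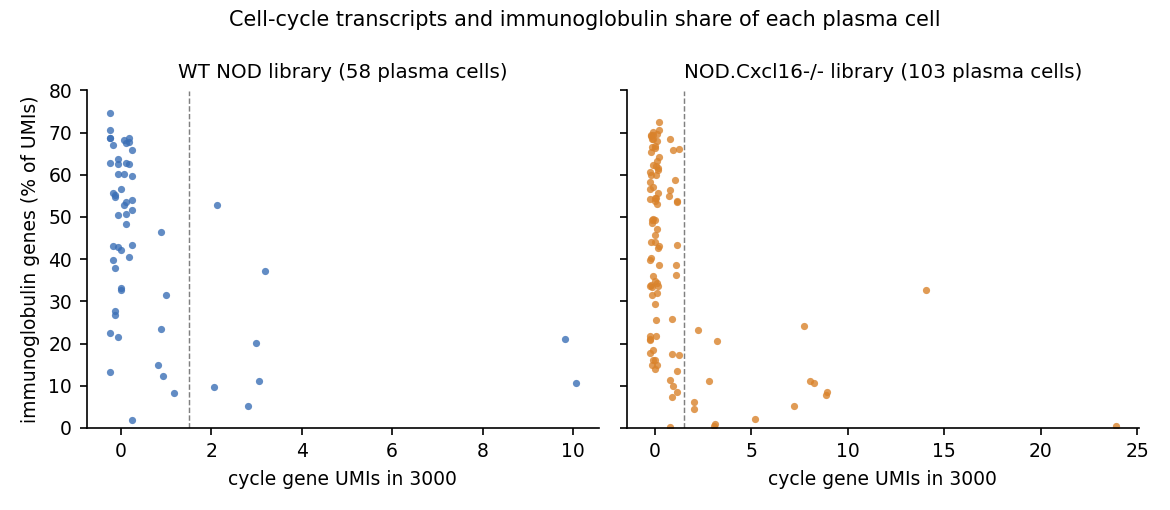
Immunoglobulin share of UMIs (vertical, %) against the count of 5 cycle genes in 3000 thinned UMIs (horizontal, whole counts spread slightly sideways) for each plasma cell of the 2 libraries. The 8 and 16 cells right of the dashed line, with 2 or more cycle UMIs, have medians of 15.7% and 8.15% immunoglobulin, against 52.3% and 48.7% in the others.

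Between cycling and other plasma cells 152 of 2625 genes (5.79%) were at least 2-fold higher in both libraries and 75 (2.86%) were lower, with median log2 ratios of 0.22 and 0.22 over all genes tested. All 18 tested genes of the cycle list were higher, 5 of which had chosen the cells. Ube2c, one of those, stood at 21.4 in other and 720 CPM in cycling cells, and at 24.1 and 797. Among genes not used, the DNA repair histone H2afx stood at 12.8 in other and 167 in cycling cells, and at 27 and 330 CPM, and the tubulin gene Tuba1b at 51.4 and 339, and at 116 and 760.

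Among the lower genes was Jchain, used by the rule. It stood at 74308 CPM in other and 16369 in cycling cells of the WT NOD library, and at 62324 and 5298 in the other (log2 ratios -2.18 and -3.56). Slpi stood at -2.16 and -2.11, Tnfrsf17 at -2.46 and -2.85, and Prg2, which encodes a granule protein known from eosinophils, at -2.10 and -5.60. Klf2, a factor of quiescence and migration, stood at -2.05 and -2.07, and the immediate early gene Fos at -2.93 and -1.59. Ly6c2 stood at -1.28 and -3.70. Of 92 secretory genes tested 0 were higher and 7 lower: Ssr4, Fkbp2, Txndc11, Edem2, Erlec1, Sel1l and Tmed3. The share of 7 in 92 lies above the 2.86% of all genes, while the median of the 92 was 0.05 in the WT NOD library against -0.55 in the other.

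Between the libraries, the number of genes past 2-fold depended on the processing. Of 2545 tested genes 34 (1.34%) were at least 2-fold higher in the library labelled NOD.Cxcl16-/- and 18 (0.707%) were lower, with a median log2 ratio of 0.05 over all. Higher and lower genes numbered 114 and 28 without the highest doublet scores, 88 and 75 with each cell thinned to 3000 UMIs, and 55 and 28 with C1q and Cd3 both at 0. With CPM over all UMIs they numbered 19 and 12. The secretory lists held 91 tested genes, of which 0 were past 2-fold and 73 were below 0, with a median of -0.15. The list medians ran from -0.29 for glycosylation to -0.09 for folding, and the widest single ratio was that of Txndc5 at -0.76 (1561 and 922 CPM). Without cycling cells the median of the 5 lists was -0.0050, and without the barcodes of high Cst3 it was -0.040. Of 13 cycle genes 3 were higher and 13 were above 0, with a median of 0.74. That median became -0.13 over 6 genes when cells under 10% immunoglobulin were left out.

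Among single genes with less RNA in the library labelled NOD.Cxcl16-/- was Prg2, at 608 and 181 CPM in 42 of 64 and 48 of 114 cells (log2 ratio -1.74, -1.94 to -1.56). Its median cell had 2.26 UMIs in 10000 in the WT NOD library against 0 in the other, with highest cells at 64.6 and 41.3, so the cells' ranges overlapped. Fam214a stood at 482 and 185 CPM in 56 and 88 cells (-1.37, -1.58 to -1.18), Sdf2 at 84.7 and 29.5 CPM (-1.49), and Trf, which encodes transferrin, at 170 and 63.4 CPM (-1.41). Fos (1849 and 772 CPM), Fosb and Dusp1, genes of early response also known to rise when tissue is dissociated, stood at -1.26, -1.43 and -1.30. In B cells Fosb stood at 179 and 124 CPM and Dusp1 at 158 and 150 CPM. The part of dissociation in these values was not tested. Ifi27l2a, an interferon-induced gene, stood at 499 and 185 CPM (-1.43), and was lower in B cells too, at 642 and 305 CPM. The lowest ratio, of Hspb1 (-3.72), rested on 1 cell with 53.8% of the WT NOD library's UMIs. For Aff3 1 cell held 80.7%, and its ratio turned to 0.87 without high doublet scores. For S100a4 the ratio of -1.29 turned to 0.64 when barcodes with any C1q or Cd3 UMI were left out.

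Of the genes higher in that library, several were those of the barcodes with high Cst3. The 15 such barcodes held 663 of 705 Cxcl9 UMIs (94.0%), 186 of 201 Aif1 UMIs (92.5%), 226 of 272 Il1b UMIs (83.1%) and 165 of 228 Fscn1 UMIs (72.4%). The summed ratios of these genes were 4.32, 1.99, 2.86 and 2.31. Cxcl9 had UMIs in 25 cells, with the highest at 47.0 in 10000 and the median at 0. Others were genes of dividing cells: Pclaf stood at 115 and 361 CPM in 10 and 27 cells (1.64, 1.35 to 1.95), Hmgb2 at 382 and 1006 CPM in 50 and 93 cells (1.39), and Top2a at 85.7 and 196 CPM (1.18). Impdh2, of guanine nucleotide synthesis, stood at 26.5 and 77.2 CPM in 14 and 41 cells (1.51). Ccr7, on both the B-cell and the dendritic cell list, was the only 1 of 15 B-cell genes tested that was past 2-fold (40.2 and 96.2 CPM), and 151 of its 202 UMIs (74.8%) lay in the 15 barcodes of high Cst3. Of 24 surface genes 0 were past 2-fold, beside 1.34% higher and 0.707% lower of all genes tested. The receptor of BAFF, Tnfrsf13c, was nearest, at 59.3 and 109 CPM (0.86, 0.45 to 1.32), and Sdc1 stood at 206 and 135 CPM (-0.61, -0.88 to -0.34).

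Cxcl16 itself was a rare transcript in plasma cells. The WT NOD library had 11 UMIs in 4 of 64 cells, 11.6 CPM (5.81 to 20.8). The library labelled NOD.Cxcl16-/- had 151 UMIs in 21 of 114 cells, 71.9 CPM (60.9 to 84.4), a log2 ratio of 2.53 (1.75 to 3.66). Barcodes with at least 50 Cst3 UMIs, 4 and 15 in number, held 7 of the 11 and 133 of the 151 UMIs (63.6% and 88.1%). Without them the levels were 4.75 (1.29 to 12.2) and 11.6 CPM (6.88 to 18.3), with a log2 ratio of 1.13 (-0.31 to 3.31). B cells stood at 26.5 and 20.1 CPM and T cells at 36.5 and 29.6, with no such barcodes left out of them. The shares of cells with a UMI were 6.25% and 18.4% in plasma cells at median totals of 24695 and 27777 UMIs, and 5.30% and 5.19% in T cells at 4287 and 4763. Cxcr6, the receptor, had 0 and 4 UMIs. The sheddases Adam10 and Adam17 had 26.5 and 42.4 CPM and 44.5 and 40 CPM. What part barcodes with RNA of more than 1 cell have in these values was not tested.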

How the data were processed

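The authors deposited 1 matrix of raw UMI counts per library, whole numbers with no normalisation. Per the submitters' processing notes Cell Ranger 7.0.1 and the build mm10 were used, and whether intronic reads were counted is not given in the sources used here. Columns of other samples numbered 0. Counts were read with Python 3.11.15 and SciPy 1.17.1. Barcodes with under 500 genes or over 10% mitochondrial UMIs were left out. Rules for B cells, isotypes and variable genes are given with the results. Sums over each library's plasma cells were scaled to 1000000 UMIs outside immunoglobulin genes. Ratios are log2, with 1 CPM added, over genes with a mean of at least 50 CPM, and 2-fold was the threshold. Exact Clopper-Pearson and Poisson intervals at 95% cover counting error only, and the floor for 0 is 3 counts. Doublets were not removed. Scores by the scheme of Scrublet served as an alternative. Thinning and calls were tested on simulated data. Named genes were the markers, the most abundant, the 12 with the highest and the 12 with the lowest ratio among those with UMIs in at least 10% of cells, and members of lists past 2-fold or of high level. IgG and IgM genes past 2-fold in both libraries were named after their values were seen. Members, gene lists and rules were chosen with earlier results of these data known. Sequences come from GRCm38 with GENCODE M21 and from RefSeq.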

Additional observations from a re-analysis of the deposited data

How the results depend on the processing

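No paired analysis was possible because each group has 1 library. Of 324 values of main results under alternatives 271 kept within counting error or 1.5 times the reported value and 53 moved. Of 516 values of named genes between the libraries 184 moved and 4 reversed, and of 364 values of IgG over IgM 5 reversed. With Xbp1 and Mzb1 at least 1, plasma cells were 0.677% and 1.35%. With C1q and Cd3 both at 0 they were 0.335% and 0.734%, Ighm was 24.4% and IgG 63.4% in the WT NOD library, 55 genes were higher and 28 lower, and the medians were -0.27 for folding and 0.49 for B-cell genes, with S100a4 at 0.64. At 90% dominance the lambda share was 0%, and at 80% the distinct pairs numbered 16 and 33. Without high Scrublet scores 114 genes were higher and 28 lower, the medians were -0.30 for the 5 secretory lists, -0.23 for folding and -0.33 for degradation, Aff3 stood at 0.87, and Cxcl16 at 6.09 with 0 UMIs left in the WT NOD library, which depends on the 1 CPM added. Ccr7 and Il1r2 (IgG over IgM, WT NOD library) then stood at -0.87. With CPM over all UMIs 19 genes were higher and the medians were -0.037 for the 5 lists, -0.021 for degradation and -0.16 for glycosylation, beside 0.18 over all genes. With equal weight per cell glycosylation was -0.15, 21 genes were lower in IgG cells, and Jarid2, Scimp and Tbc1d4 stood at -0.62, -0.22 and -0.082. With cells thinned to 3000 UMIs 88 genes were higher and 75 lower, and the medians were -0.045 for the 5 lists, degradation 0.0080, glycosylation -0.068, vesicle transport 0.11, surface 0.24 and interferon -0.71. With a mean of 10 CPM 236 and 137 genes were past 2-fold among 7101, and with 200 CPM 4 and 7 among 656, and 3 and 4 in IgG over IgM. Alternatives chosen after seeing the data were these: without barcodes of at least 50 Cst3 UMIs the medians were -0.040 for the 5 lists, -0.023 for degradation and -0.16 for glycosylation, with Cxcl16 at 1.13 and S100a4 at 0.12. With at least 10% immunoglobulin degradation was -0.015, cycle genes -0.13, Aff3 0.81 and the cycling share 7.78% in the library labelled NOD.Cxcl16-/-. Without cycling cells the medians were -0.0050 for the 5 lists, degradation 0.058, glycosylation -0.10, vesicle transport 0.082 and cycle 1.69 over 2 genes. The comparison of isotypes was likewise varied after seeing the data. Thinned to 1500 UMIs the cycling share was 3.23% in the WT NOD library, and with 1 UMI 35.0% in the other. The cause of these shifts was not tested, other than fewer cells or genes entering where a filter was stricter. With 64 and 114 cells, shares carry intervals of several percentage points, and genes under about 50 CPM were not compared.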

Other observations

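Iglv1, a lambda variable gene, was found in most kappa plasma cells. It stood at 3462 and 2282 counts per 1000000 of all UMIs in plasma cells of the WT NOD and the other library, against 9.59 and 5.47 in B cells and 2.55 and 1.89 in T cells. It had UMIs in 62 of 64 and 101 of 114 plasma cells. The median kappa cell had 40 and 29 UMIs of Iglv1, 124 and 79.5 of the lambda constant genes together, and 6208 and 6476.5 of Igkc. Igkc in T cells, which do not make it, stood at 441 and 340 counts per 1000000.

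The 4 barcodes of the library labelled NOD.Cxcl16-/- with under 1% immunoglobulin held 59 of the 69 Id3 UMIs of its plasma cells and 109 of the 303 Ms4a1 UMIs. Of these 4 barcodes 3 were cycling, and their median was 46016.5 UMIs outside immunoglobulin genes.

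Endocrine transcripts were spread unevenly between the libraries. Ins2 had UMIs in 2 of 64 and 36 of 114 plasma cells, in 4.18% and 22.8% of B cells, and in 7.60% and 33.2% of T cells.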
